A study of Mus musculus with 8 samples.

Results

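Imprinted genes were followed in whole-brain bulk RNA-seq of adult mice. The set holds 40 genes that are known to be imprinted in mice, or that share an imprinted domain, and they were taken by symbol from the 24343 genes of the deposited table, where all 40 were found. The mice were 3 animals of the inbred strain C57BL/6NCrl, 56 to 62 days old, of a single condition with no mutation or treatment named in the labels, and their sex was not given there. Mice 1 and 2 gave 3 libraries each and mouse 3 gave 2, which makes 8 libraries of poly(A)-selected type (a Kapa mRNA kit) made from total RNA of the whole brain. What separates the libraries of a mouse was not stated, so that differences between mice were measured against a spread between libraries that may be technical. Values are FPKM, the number of sequenced fragments scaled to transcript length and library size, summed over the transcripts of a gene. Each mean ± SD is over the 3 mouse means (n = 3).

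Imprinted genes are read mainly from the chromosome inherited from 1 parent, because DNA methylation set in the egg or the sperm survives the early embryo at an imprinting control region and silences or frees the genes around it. They lie in clusters in which protein-coding genes often sit beside long noncoding RNAs of the other parental chromosome. In the brain they are known for roles in growth, feeding, sleep and maternal care, and in some neurons or glia single members lose their imprint. Both chromosomes of an inbred mouse have the same sequence, so the level of a gene was measured here and its parental origin was not. Below, a gene is called paternal or maternal by the chromosome it is known to be read from, which is background knowledge.

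The control regions that carry the methylation hold copies of TGCCGC, the core of the site bound by ZFP57, a zinc finger protein that keeps imprints methylated. Promoter windows of 300 bases, 250 before and 50 after the annotated start, were read from RefSeq (GRCm38.p6) for the members. The counts below use 46 windows, which belong to 32 of the 40 genes. The other genes, Impact among them, are not in these counts, so the members' shares describe these 32 genes only. TGCCGC or its complement GCGGCA was present in 12 of the 46 windows (26.1%), in 11 members, and in 11.6% of 32851 windows of all genes. The members' windows held a median of 13.5 CpG dinucleotides, against 7 in all windows, and 21 of the 46 (45.7%) were rich in CpG, against 33.5% of all. The motif itself holds a CpG, and its share was not compared with windows matched for CpG content. Some members share a window, as Snurf and Snrpn do. Windows of Mest with the motif overlap almost fully (chr6:30737800-30738099 and chr6:30737803-30738102). For these reasons the shares are descriptions. The sequences below are shown for Meg3 and Nnat, which had the lowest adjusted p between the mice, and for Peg3 and Usp29, which share a promoter region and were both lower in mouse 3. Capitals mark the motif on either strand. Meg3 and Nnat are given as the 250 bases upstream of the start, at chr12:109540746-109540995 and chr2:157559828-157560077, both on the plus strand. The Nnat window has its 1 copy of the motif among the 50 bases after the start, which are not printed. Peg3 and Usp29 are read in opposite directions from starts that lie 163 bases apart, and the whole interval between them, chr7:6730420-6730582 on the plus strand, is given.
Meg3: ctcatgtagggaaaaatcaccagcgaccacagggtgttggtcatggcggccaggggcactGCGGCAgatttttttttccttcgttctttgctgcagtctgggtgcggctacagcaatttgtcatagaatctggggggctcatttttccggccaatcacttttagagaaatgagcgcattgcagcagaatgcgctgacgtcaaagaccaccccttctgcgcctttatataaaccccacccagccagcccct
Nnat: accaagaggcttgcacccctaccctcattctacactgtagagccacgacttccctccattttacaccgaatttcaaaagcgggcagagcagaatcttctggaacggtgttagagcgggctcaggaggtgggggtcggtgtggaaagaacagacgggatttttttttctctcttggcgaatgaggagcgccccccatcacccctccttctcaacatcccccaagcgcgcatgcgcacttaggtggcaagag
Peg3-Usp29 interval: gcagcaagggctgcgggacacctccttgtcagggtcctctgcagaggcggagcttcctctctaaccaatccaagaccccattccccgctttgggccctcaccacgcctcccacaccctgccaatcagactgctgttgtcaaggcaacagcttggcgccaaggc
The 3 stretches held 10, 12 and 5 CpG dinucleotides, respectively, and the motif was found once in the first and in neither of the others. These letters say nothing of methylation or of binding, which were not measured.

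The libraries had between 1.31 and 2.02 gigabases read on transcripts (median 1.76), and no member had a value that the estimation had marked as failed. The libraries of mouse 3 stood apart from the other 6 across the whole table, more so for library 2. Both had a higher sum of FPKM (384885 and 409889, against 295541 to 345572 in mice 1 and 2), and short transcripts were higher and long ones lower in mouse 3. Among all genes the median difference of mouse 3 from the other mice, on the log2(FPKM + 1) scale, was 0.31 for transcripts under 2000 nucleotides and -0.18 for those over 4000. Neuron markers summed to between 1352 and 1466 FPKM in mice 1 and 2 and to 1152 and 1281 in mouse 3, and oligodendrocyte markers to between 1848 and 2033 and to 3598 and 4485. In bulk RNA, fewer cells of a type and less RNA per cell cannot be told apart.

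Imprinted genes were spread over a wide range of levels in the adult brain. Of the 40 members, 28 reached a mean of 1 FPKM, as did 53.4% of all genes, 18 reached 10 FPKM and 7 reached 100 FPKM. The median over the 28 was 20.4 FPKM, beside 8.81 FPKM over the 13001 genes that reached 1 FPKM. Their levels varied between the mice about as much as those of other genes, with a median coefficient of variation of 12.4% for the 28 members and 12.3% for the 13001 genes. When the members were put in order of their mean level, the library ranges of 31 of the 39 neighbouring pairs overlapped. The exceptions were Gnas over Snrpn, Snrpn over Nap1l5, Rian over Impact, Impact over Peg13, Peg13 over Blcap, Sgce over Grb10, Grb10 over Peg10 and Cdkn1c over Zim1. Among the 23 members known as paternal, 16 reached 1 FPKM and Snrpn was highest, and among the 11 known as maternal, 6 did and Meg3 was highest. The other 6, whose known imprint differs between transcripts or cell types, all reached 1 FPKM.

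**Figure D1:**
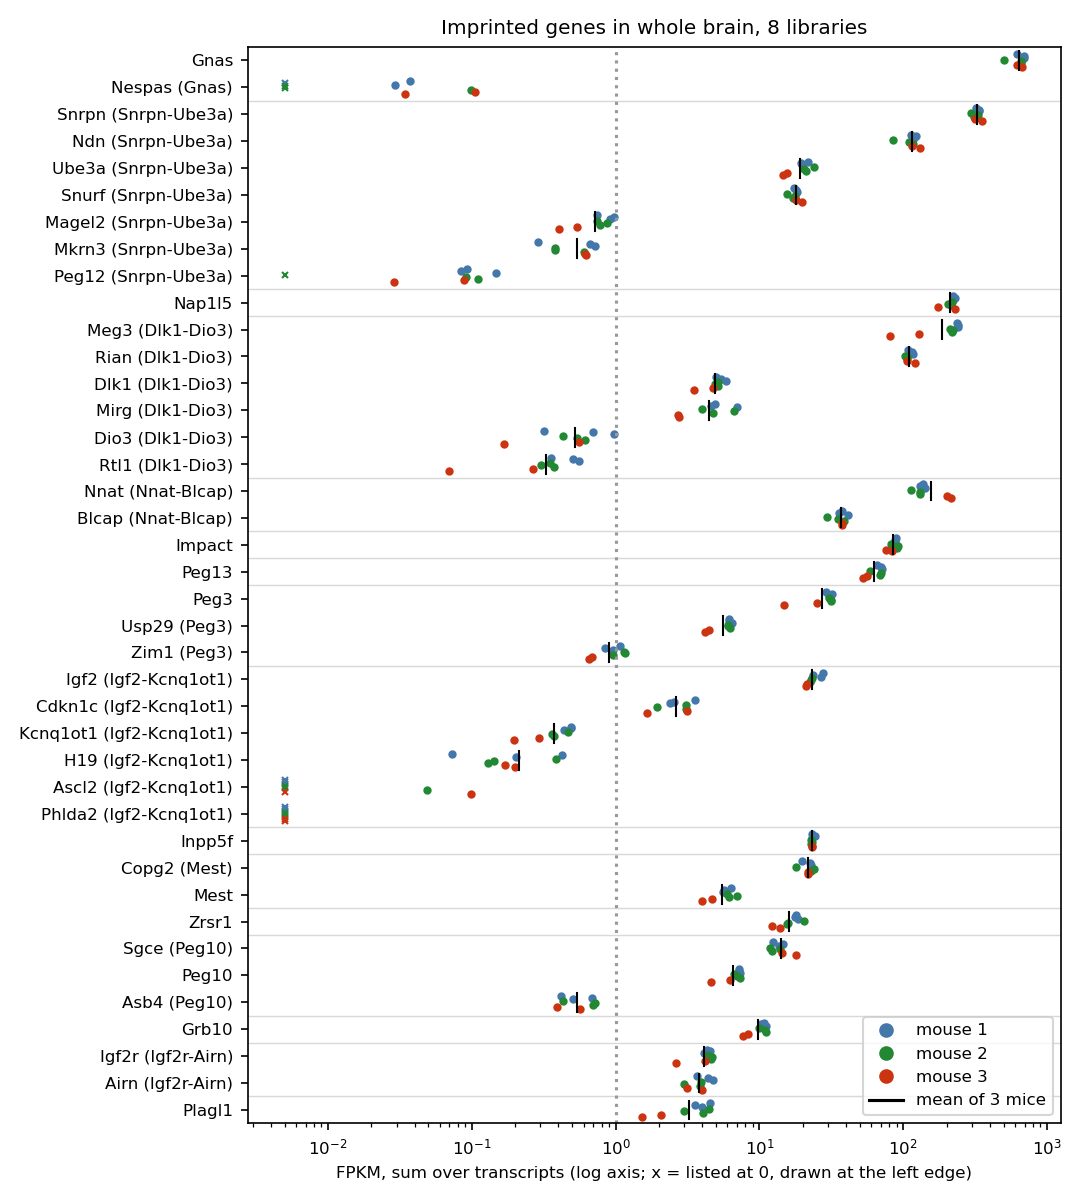
FPKM of the 40 imprinted genes on a log axis, grouped by locus (named in parentheses where a locus holds several members), with 1 point per library coloured by mouse and a black line at the mean of the 3 mice where every library was above 0. The dotted line is at 1 FPKM, and crosses at the left mark libraries in which a gene is listed at 0. Gnas lies highest at 639 FPKM, and Phlda2 is listed at 0 in all 8 libraries.

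Gnas, which encodes the alpha subunit of the stimulatory G protein and is imprinted in some of its transcripts and cell types, had the highest level of the set. Its locus (mm10 chr2:174284320-174346742) gave 639 ± 29.9 FPKM, rank 42 of 24343 genes. The libraries read 617, 693 and 687 FPKM in mouse 1, 501, 659 and 661 in mouse 2 and 622 and 665 in mouse 3, so that the mice overlapped and library 1 of mouse 2 was lowest. Its 10 annotated transcripts share most of their exons, so that their values rest on how the estimation divided the reads. NM_201616, which encodes the full G protein subunit, had 260 ± 19 FPKM (40.7% of the gene). NR_003258, a noncoding transcript with a first exon upstream of it, had 334 ± 27.4 FPKM (52.4%). The ratio of the noncoding transcript to NM_201616 ran from 0.689 in library 1 of mouse 2 to 1.60 in library 1 of mouse 3, and libraries of the same mouse spanned most of this range. NM_019690, the transcript that starts at the far upstream end of the locus, had 17.9 ± 3.07 FPKM, and the transcripts that start at chr2:174297859 had at most 0.367 FPKM in a library. Nespas, the paternal antisense RNA of the locus, was listed at 0 in 3 libraries and had at most 0.105 FPKM in the others.

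The cluster of the Prader-Willi and Angelman syndromes on chromosome 7 held the next highest member and summed to 480 ± 20.5 FPKM over 7 genes, of which Snrpn gave 68.0%. Snrpn, which encodes the neuronal splicing protein SmN, had 326 ± 12.6 FPKM, rank 139 (chr7:59982502-60140219). Its libraries read 320.0, 337 and 335 FPKM in mouse 1, 295, 330.3 and 311 in mouse 2 and 317 and 354 in mouse 3, and the mice overlapped. NM_013670, read from the promoter it shares with Snurf, gave 96.7% of Snrpn, and the transcripts from 2 promoters farther upstream gave 1.48% and 1.86%. Snurf, a short protein encoded on the same messenger RNA, had 17.9 ± 1.04 FPKM, between 0.0531 and 0.0566 of the Snrpn level in each library. The Snurf transcript has 1971 nucleotides and NM_013670 has 1970, at the same place, so that these reads cannot be assigned to either and their ratio reflects the division made by the estimation. Ndn, the gene of the MAGE family protein necdin, had 115 ± 9.72 FPKM, and its libraries lay between 85.5 in library 1 of mouse 2 and 131 in library 2 of mouse 3.

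The remaining genes of that cluster were far lower, with the exception of Ube3a. Ube3a, a ubiquitin ligase read from the maternal chromosome in neurons, had 19.1 ± 3.57 FPKM (chr7:59228750-59306727). Its main transcript NM_001033962 gave 71.7% of this. Magel2, a regulator of protein trafficking in the hypothalamus, had 0.716 ± 0.213 FPKM, Mkrn3, a brake on puberty, had 0.543 ± 0.0822 FPKM, and Peg12 was listed at 0 in 1 library and had at most 0.147 FPKM. Ndn and Magel2 are neighbours and both belong to the MAGE family. The ratio of their levels was between 114 and 153 in mice 1 and 2 and was 212 and 322 in the libraries of mouse 3. Ndn has 1651 nucleotides and Magel2 has 4662, and among all genes short transcripts were higher and long ones lower in mouse 3. The part of length in this ratio was not tested.

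The Dlk1-Dio3 cluster on chromosome 12 summed to 308 ± 73.1 FPKM, and nearly all of it came from maternal noncoding RNAs. Meg3, a nuclear RNA at chr12:109540996-109571729, had 187 ± 72.0 FPKM, rank 268. Rian, the host of many small nucleolar RNAs, had 111 ± 4.39 FPKM (chr12:109603945-109661711), and Mirg, the host of a microRNA cluster, had 4.45 ± 1.503 FPKM (chr12:109734981-109749457). The paternal protein-coding genes were lower. Dlk1, a membrane ligand related to those of Notch, had 4.88 ± 0.671 FPKM. Dio3, the enzyme that inactivates thyroid hormone, had 0.518 ± 0.151 FPKM, and Rtl1, a gene derived from a retrotransposon and known from placenta and muscle, had 0.328 ± 0.153 FPKM. Of the 71 other rows that the table lists between Meg3 and Dio3, 61 were microRNAs, of which 5 were above 0 in any library, and libraries of this kind are not made to capture RNAs of that size.

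Nnat and Blcap lie on chromosome 2, where Nnat, a small membrane protein, is read from the paternal chromosome within an intron of Blcap. Nnat had 157 ± 45.3 FPKM (chr2:157560078-157562525) and Blcap had 36.7 ± 1.97 FPKM. Of the 5 Nnat transcripts, which begin at 1 start, NM_010923 gave 68.0% and NM_180960 gave 19.7%. Among members that lie alone in an intron of another gene or have no neighbour in the set, Nap1l5, a relative of nucleosome assembly proteins inside Herc3, had 213 ± 11.8 FPKM. Impact, an inhibitor of the stress kinase GCN2, had 85.3 ± 4.86 FPKM. Peg13, a noncoding RNA inside Trappc9, had 63.0 ± 7.73 FPKM. Inpp5f, a phosphoinositide phosphatase of which 1 transcript is known as imprinted, had 23.3 ± 0.302 FPKM and library values from 22.9 to 24.4. Only 1 Inpp5f transcript was listed here, of 4740 nucleotides at chr7:128611365-128696436, and it was not identified as the imprinted one.

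The growth factor Igf2 had 23.4 ± 2.38 FPKM (chr7:142650768-142661035), which was 87.8% of the 26.6 ± 2.70 FPKM of its cluster. NM_001122737 gave 89.1% of Igf2. In adult brain Igf2 is known from leptomeninges and choroid plexus, where it escapes imprinting. Leptomeninges markers summed to between 25.3 and 29.5 FPKM and choroid plexus markers to between 322 and 566 FPKM, with no marker of either list at 0 in all libraries. H19, the maternal noncoding RNA beside Igf2, had 0.213 ± 0.0241 FPKM, and its libraries ran from 0.0727 to 0.425. Cdkn1c, an inhibitor of the cell cycle, had 2.65 ± 0.229 FPKM. Kcnq1ot1, a long noncoding RNA known as paternal and annotated as 83437 nucleotides, had 0.374 ± 0.116 FPKM. The placental genes were lowest: Ascl2 was listed at 0 in 6 libraries and had 0.0485 and 0.0995 FPKM in the other two, and Phlda2 was listed at 0 in all 8.

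The other loci lay in the middle of the range. In the Peg3 domain, the zinc finger gene Peg3 had 27.2 ± 6.21 FPKM (chr7:6705960-6730419), the protease gene Usp29 had 5.55 ± 1.07 FPKM (chr7:6730583-6967219) and the maternal gene Zim1 had 0.906 ± 0.213 FPKM. At the Mest locus, Copg2, a subunit of the coat of transport vesicles, had 21.7 ± 0.172 FPKM, whereas Mest, a hydrolase gene that meets Copg2 tail to tail, had 5.52 ± 1.04 FPKM. At the Peg10 locus, Sgce, the gene of epsilon-sarcoglycan, had 14.1 ± 1.76 FPKM, the retrotransposon-derived gene Peg10 had 6.54 ± 0.979 FPKM and Asb4 had 0.542 ± 0.0688 FPKM. The receptor gene Igf2r had 4.11 ± 0.624 FPKM and Airn, the noncoding RNA antisense to it, had 3.82 ± 0.401 FPKM, of which NR_027773 gave 55.0%. Zrsr1, a splicing factor gene inside Commd1, had 16.1 ± 2.65 FPKM, the adaptor gene Grb10 had 9.78 ± 1.56 FPKM and the zinc finger gene Plagl1 had 3.23 ± 1.24 FPKM. Overlapping antisense pairs, which here include Igf2r with Airn, Mest with Copg2 and Gnas with Nespas, are uncertain, because the strand setting is not given in the sources used here.

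**Figure D2:**
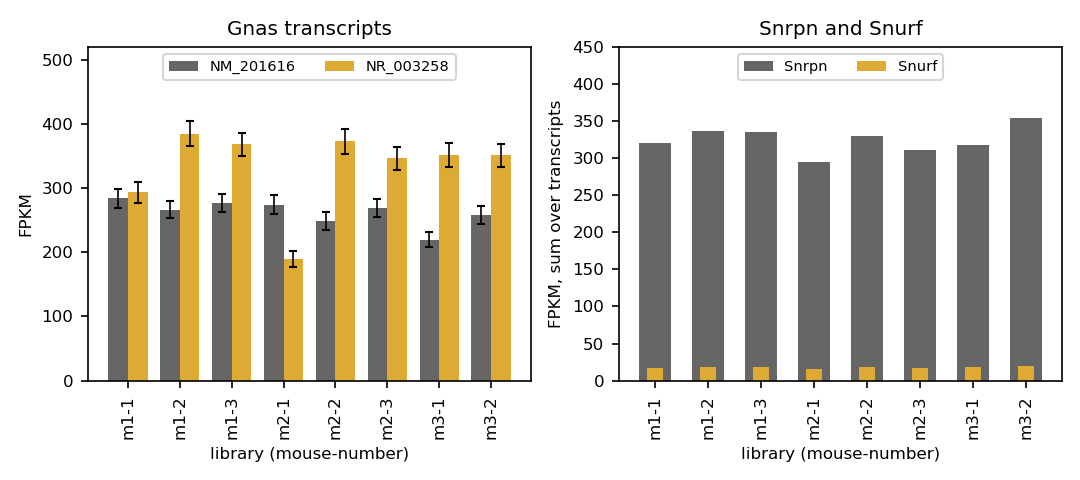
FPKM by library (mouse and library number) of transcripts that share most of their sequence. On the left are the main Gnas transcripts NM_201616 and NR_003258 with the deposited confidence bounds as error bars. On the right are Snrpn and Snurf, which stay in nearly the same ratio (0.0531 to 0.0566) in all 8 libraries.

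The 28 members with at least 1 FPKM were compared between the mice in a fit over all 13001 such genes. The genes that differed between these 3 animals were lowest in mouse 3 with the exception of Nnat, and Meg3 had the largest difference. Of the 28, 10 (35.7%) had an adjusted p under 0.05 (limma, moderated F-test, Benjamini-Hochberg), beside 26.9% of all genes (3496). Unless stated otherwise, each adjusted p from limma is of this F-test over the 3 mice, and calls rest on it. The differences and their SE are of mouse 3 against the mean of mice 1 and 2, which the F-test does not test alone. Mouse 3 was lowest for 9 of the 10 (32.1% of the 28), beside 11.8% of all genes, and highest for 1, Nnat (3.57%), beside 15.0%. The median difference of mouse 3 from the mean of mice 1 and 2 was -0.18 over the 28 members and 0.02 over all genes (log2(FPKM + 1)). Without library 2 of mouse 3, Meg3 and Nnat were the members called, 2 of 28 (7.14%), beside 2.86% of all genes, of which 1.26% had mouse 3 lowest, as Meg3 did, and 1.59% had it highest, as Nnat did. These shares are of all genes tested. With the library number as a block, 7 of 28 (25%) were called, beside 26.0% of all genes. Mirg, Peg3 and Zrsr1 were then not called (limma, adjusted p = 0.0631, 0.0598 and 0.0680). With the highest transcript of each gene, 5 of 28 (17.9%) were called, beside 21.1%. Ube3a, Usp29, Mest, Grb10 and Zrsr1 were then not called (limma, adjusted p = 0.0755, 0.0695, 0.0720, 0.373 and 0.0637). With values scaled to TPM, which makes every library sum to the same total and lowered all genes in mouse 3 by a median of 0.23, 19 of 28 members were called, beside 43.9% of all genes. Called with mouse 3 lowest were 18 of the 28 (64.3%), beside 37.2% of all genes, and called with it highest was 1 (3.57%), beside 6.44%.

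The members' median difference was lower in classes of longer transcripts, as that of all genes was, and lay below that of all genes in each class. Single members departed from this, such as Mirg (1299 nucleotides, -0.74) and Inpp5f (4740 nucleotides, -0.00). Among members of 2000 to 4000 nucleotides, 1 of 5 was called, beside 21% of all genes of that length, with a median difference of -0.14, beside -0.0019. Among members over 4000 nucleotides, 7 of 13 were called, beside 28.1% of all genes of that length, and their median difference was -0.38, beside -0.18. Among those under 2000 nucleotides, 2 of 10 were called, beside 33.6%, with a median difference of 0.04, beside 0.31. In a fit with the length trend of each library removed, 7 of 28 members (25%) were called, beside 22.0% of all genes, and for 6 of them mouse 3 was lower, beside 10.4%. Ube3a, Peg3, Usp29 and Zrsr1 were then no longer called and Airn was. In the fit without that removal, 6 of 16 paternal members (37.5%), 3 of 6 maternal members (50%) and 1 of 6 of the others (16.7%) were called, beside 26.9% of all genes.

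**Figure D3:**
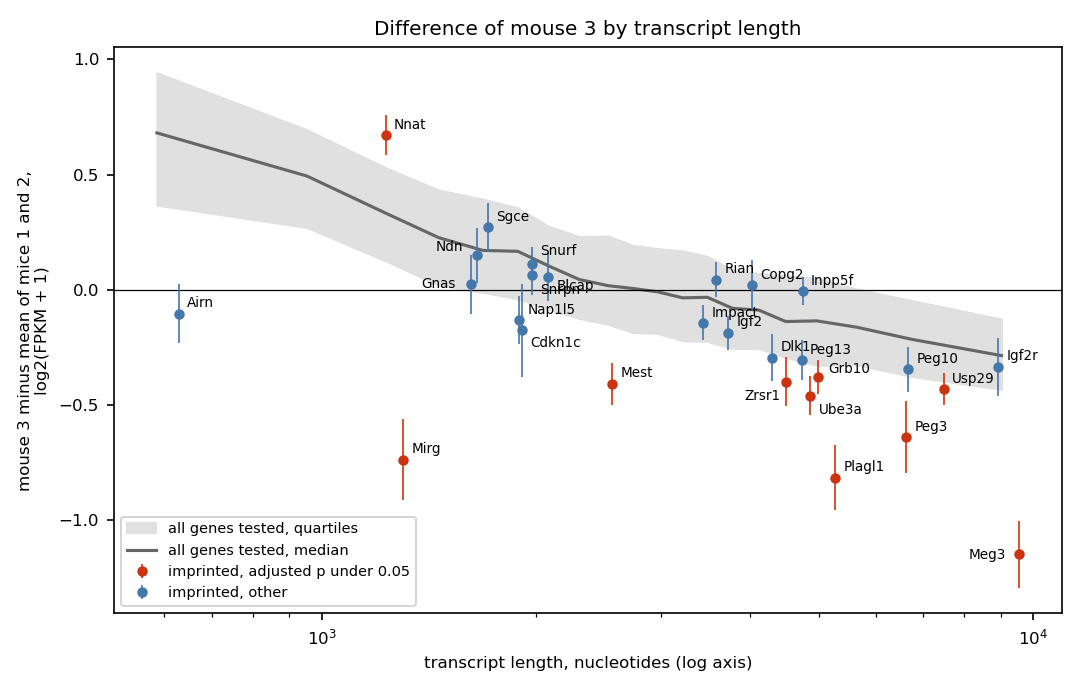
Difference of mouse 3 from the mean of mice 1 and 2 in log2(FPKM + 1), against transcript length on a log axis, for the 28 imprinted genes with at least 1 FPKM (points, with the standard error of the difference as bars, and in red the 10 with an adjusted p under 0.05). The grey line and band give the median and quartiles over all 13001 genes tested in classes of length. Meg3, Mirg and Plagl1 lie farthest below the band (-1.15, -0.74 and -0.82), and Nnat lies above the other members (0.67).

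The libraries of Meg3 read 235, 241 and 240.4 FPKM in mouse 1, 211, 221 and 219 in mouse 2 and 128 and 81.2 in mouse 3. The 6 libraries of mice 1 and 2 fell in a narrow range, and both libraries of mouse 3 lay far below it. The difference of mouse 3 was -1.15 ± 0.14 (SE; log2(FPKM + 1); limma, adjusted p = 0.0051), and it was called when any single library was left out. Without library 2 of mouse 3 it was -0.82 (limma, adjusted p = 0.0199), and with the length trend removed it was -0.88 (limma, adjusted p = 0.0011). All 3 Meg3 transcripts were lowest in both libraries of mouse 3. NR_027651, of 11460 nucleotides, had at least 94.0 FPKM in mice 1 and 2 and had 61.6 and 35.6 in mouse 3. NR_003633, of 11472 nucleotides, had at least 66.5 and then 43.6 and 29.3 FPKM. NR_027652, of 1913 nucleotides, had at least 25.8 and then 22.9 and 16.3 FPKM, so that library 1 of mouse 2 lay close to mouse 3 for the short form.

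Rian overlapped between the mice, whereas Meg3 did not, and both are known to be read from the maternal chromosome of the same cluster in the same direction. Its libraries read 108, 115 and 117 FPKM in mouse 1, 104, 106 and 107 in mouse 2 and 106 and 120.3 in mouse 3, and the mice overlapped. Its difference was 0.04 ± 0.08 (SE; limma, adjusted p = 0.514). Under TPM it was -0.25 (limma, adjusted p = 0.0497), close to the shift of all genes. The ratio of Meg3 to Rian was between 2.04 and 2.18 in the 6 libraries of mice 1 and 2, and was 1.21 and 0.675 in mouse 3. In an exact permutation test over the 28 choices of 2 libraries, this ratio reached p = 0.0357, two-sided, which is the smallest that the design allows, and adjusted over 13 such ratios it was p = 0.0663. Of the 13 ratios, 7 reached this smallest p, among them Snurf to Snrpn, whose reads cannot be told apart. The libraries of a mouse are not independent, so this p describes these libraries.

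Mirg, which lies beyond Rian in the cluster, was low in mouse 3 as Meg3 was. Its libraries read 4.89, 4.61 and 6.98 FPKM in mouse 1, 3.98, 6.65 and 4.77 in mouse 2 and 2.70 and 2.76 in mouse 3, which was below all the others. The difference was -0.74 ± 0.18 (SE; limma, adjusted p = 0.0353). With the length trend removed it was larger, -1.05 (limma, adjusted p = 0.0062), since Mirg is annotated with only 1299 nucleotides. It was called in 4 of the 8 fits that each left out a library. The ratio of Mirg to Rian was between 0.0384 and 0.0627 in mice 1 and 2 and was 0.0255 and 0.0230 in mouse 3 (exact permutation p = 0.0357, adjusted p = 0.0663), whereas the ratio of Meg3 to Mirg overlapped between the mice (29.4 to 53.1; exact permutation p = 0.464). Dlk1, the paternal gene of the cluster, read between 4.94 and 5.82 FPKM in mice 1 and 2 and 4.76 and 3.51 in mouse 3. Its difference was -0.29 ± 0.10 (SE), and the F-test over the 3 mice did not call it (limma, adjusted p = 0.117). When only mouse 3 was compared with the mean of mice 1 and 2, the adjusted p was 0.0497 (limma), just under the threshold.

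**Figure D4:**
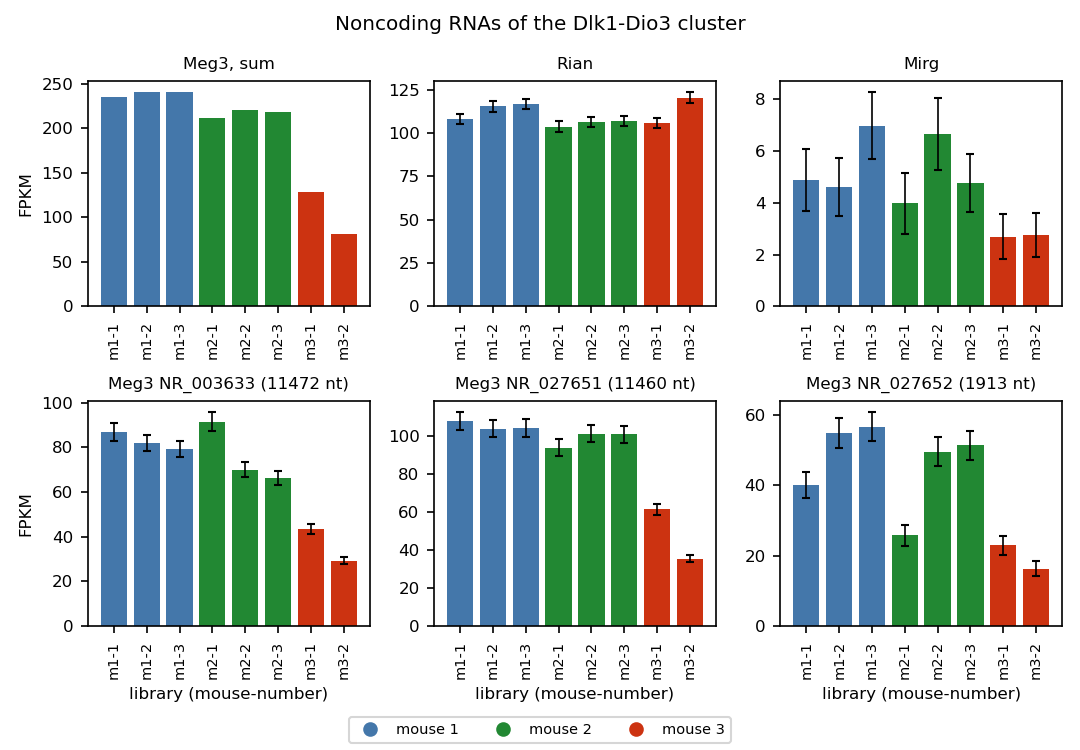
FPKM of the noncoding RNAs of the Dlk1-Dio3 cluster by library (mouse and library number), with the summed Meg3, Rian and Mirg above and the 3 Meg3 transcripts below. Error bars are the deposited confidence bounds, which were not added up for the sum. Meg3 and Mirg are lowest in both libraries of mouse 3 (128 and 81.2 FPKM, and 2.70 and 2.76), and Rian is not, at 106 and 120.3 FPKM.

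Nnat was the only member called with mouse 3 highest. Its libraries read 138, 130.1 and 142 FPKM in mouse 1, 113, 131 and 131 in mouse 2 and 203 and 214 in mouse 3, so that both libraries of mouse 3 lay above all the others. The difference was 0.67 ± 0.09 (SE; limma, adjusted p = 0.0052), and with the length trend removed it was 0.33 (limma, adjusted p = 0.0175). Under TPM it was 0.37. Without library 2 of mouse 3 it was 0.64 with an adjusted p of 0.04999 (limma), just under the threshold. Its host gene Blcap had a difference of 0.05 ± 0.10 (SE; limma, adjusted p = 0.474), and the ratio of Nnat to Blcap was between 3.39 and 3.83 in mice 1 and 2 and was 5.42 and 5.69 in mouse 3 (exact permutation p = 0.0357, adjusted p = 0.0663). Nnat is known from ependyma and hypothalamus, and all 3 ependyma markers and 1 of 4 hypothalamus markers tested, Pmch, were also called with higher values in mouse 3. Pmch and Tmem212 have only 748 and 717 nucleotides, with differences of 0.64 and 0.70. Among all genes, the length classes centred at 586 and 952 nucleotides had median differences of 0.68 and 0.49. The other ependyma markers, Ccdc153 (1086 nucleotides) and Foxj1 (2578 nucleotides), had differences of 0.93 and 0.37. Ependyma markers summed to between 6.20 and 7.85 FPKM in mice 1 and 2 and to 11.9 and 12.4 in mouse 3, and hypothalamus markers to between 22.6 and 42.3 and to 55.0 and 49.4. Their part in the Nnat difference was not tested.

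Peg3 and Usp29, which are read away from each other across the interval printed above, were both lower in mouse 3. Usp29 read 6.16, 6.13 and 6.40 FPKM in mouse 1, 6.04, 6.08 and 6.21 in mouse 2 and 4.46 and 4.17 in mouse 3. The libraries of mice 1 and 2 were tightly grouped, and the difference of mouse 3 was -0.43 ± 0.07 (SE; limma, adjusted p = 0.0090). Peg3 read 29.0, 32.0 and 30.5 FPKM, then 30.6, 31.3 and 31.5, and then 25.3 and 14.8, so that library 2 of mouse 3 was by far the lowest. Its difference was -0.64 ± 0.16 (SE; limma, adjusted p = 0.0390), and without that library it was -0.27 (limma, adjusted p = 0.128). Zim1, the maternal neighbour, stayed below the minimum of 1 FPKM and read between 0.841 and 1.16 FPKM in mice 1 and 2 and 0.691 and 0.654 in mouse 3. These are long transcripts, and with the length trend removed the differences were -0.20 for Usp29 and -0.44 for Peg3, with adjusted p of 0.110 and 0.0656 (limma).

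Ube3a was the member of the Prader-Willi and Angelman cluster that differed. It read 21.9, 19.6 and 19.9 FPKM in mouse 1, 24.1, 20.3 and 21.2 in mouse 2 and 15.5 and 14.6 in mouse 3, which lay below all the others. The difference was -0.46 ± 0.08 (SE; limma, adjusted p = 0.0132), and it was called in 7 of the 8 fits that each left out a library, with the exception of the fit without library 2 of mouse 3 (-0.42; limma, adjusted p = 0.110). With the length trend removed the difference was -0.33 (limma, adjusted p = 0.0530). For the paternal genes Snrpn, Snurf and Ndn the differences were 0.06, 0.11 and 0.15, with adjusted p of 0.610, 0.310 and 0.296 (limma), and all 3 were negative with TPM and with the length trend removed. Of 3 neuron markers, Syt1 and Rbfox3 were lower in mouse 3 as well (-0.73 and -0.49), and Snap25 was not called (-0.12; limma, adjusted p = 0.552). Syt1, Rbfox3 and Snap25 have 4741, 3153 and 2119 nucleotides. The part of neurons in the Ube3a difference was not tested.

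The other 4 genes called lie at separate loci and were lower in mouse 3. Plagl1 read 4.57, 3.59 and 3.98 FPKM in mouse 1, 4.46, 3.00 and 4.06 in mouse 2 and 2.09 and 1.52 in mouse 3, a difference of -0.82 ± 0.14 (SE; limma, adjusted p = 0.0115). Grb10 read 10.8, 10.3 and 11.1 FPKM, then 9.90, 10.9 and 11.1, and then 8.31 and 7.65, a difference of -0.38 ± 0.07 (SE; limma, adjusted p = 0.0179). With the highest transcript of each gene in place of the sum, the Grb10 difference was -0.13 (limma, adjusted p = 0.373), and NM_010345, which gave 67.2% of Grb10, had 6.47 and 6.01 FPKM in mouse 3, within the range of the other libraries (4.92 to 7.46). For the summed levels of both genes, the libraries of mouse 3 were below all the others. Mest read 6.33, 5.63 and 5.61 FPKM, then 5.99, 6.94 and 6.11, and then 4.71 and 3.99, a difference of -0.41 ± 0.09 (SE; limma, adjusted p = 0.0257). Mest was called in 4 of the 8 fits that each left out a library. Zrsr1 read 18.1, 17.5 and 18.5 FPKM, then 20.4, 15.7 and 15.5, and then 12.3 and 13.8, a difference of -0.40 ± 0.11 (SE; limma, adjusted p = 0.0495). Zrsr1 lay near the threshold and was called in 2 of the 8 fits that left out a library, as was Peg3. Its host gene Commd1 moved the other way, with a difference of 0.79 ± 0.16 (SE; limma, adjusted p = 0.0224), and has a shorter transcript (818 nucleotides, against 4492).

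**Figure D5:**
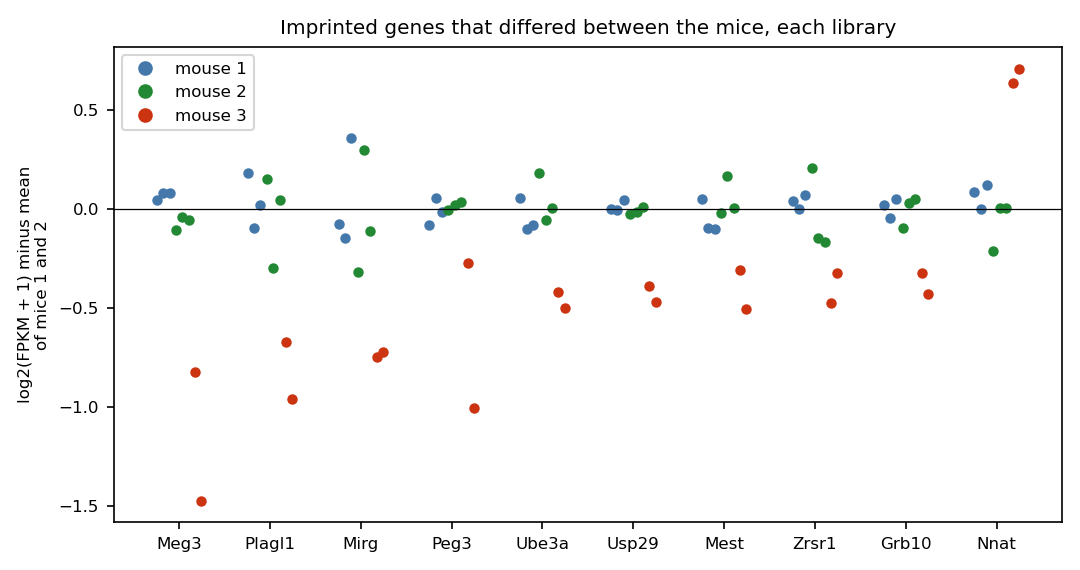
Log2(FPKM + 1) of the 10 imprinted genes that differed between the mice, as the deviation from the mean of mice 1 and 2, with 1 point per library coloured by mouse. Both points of mouse 3 lie below all others for 9 genes and above them for Nnat, and these directions were the same with TPM values.

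Among the 18 tested members that were not called, some lay near the threshold and others barely moved. Peg13, Peg10 and Igf2 had adjusted p of 0.0613, 0.0625 and 0.0720 in the F-test (limma), with differences of -0.31, -0.35 and -0.19. When only mouse 3 was compared with the mean of mice 1 and 2, their adjusted p were 0.0233, 0.0228 and 0.0746 (limma). Peg13 and Peg10, like Dlk1, were thus under the threshold in that comparison and not in the F-test. Counting those called and not called, both libraries of mouse 3 were below the other 6 for 13 of the 28 members (46.4%), beside 21.7% of all genes, and above them for 1 (3.57%), beside 26.5%. Copg2 and Inpp5f, with transcripts of 4016 and 4740 nucleotides, had differences of 0.02 ± 0.11 and -0.00 ± 0.06 (SE; limma, adjusted p = 0.975 and 0.887). Gnas had 0.02 ± 0.13 (SE; limma, adjusted p = 0.648). These directions changed under other settings. Of the 11 members under 1 FPKM that are above 0 in any library, 4 (36.4%) had both libraries of mouse 3 below the other 6. These were Rtl1, Magel2, Zim1 and Kcnq1ot1, with means of 0.328 to 0.906 FPKM and transcripts of 3501 nucleotides or more. Over all 6295 genes under 1 FPKM and above 0 in any library the share was 4.0%. Those genes were not matched to the 4 for level or length. A gene at 0 in any library of mice 1 and 2 cannot show this pattern, so the shares are not like for like. In a fit with no minimum level, which called 12.7% of all 19296 genes, none of the 11 was called (limma), and their lowest adjusted p was 0.0558, for Magel2. The 4 just named had an unadjusted p under 0.05 in that fit.

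Of 13 genes that set or keep imprints, 10 reached 1 FPKM and 6 (60.0%) were called, all lower in mouse 3. Over all genes, 26.9% were called and 11.8% were called with mouse 3 lowest. The list was chosen with earlier results of these data known, so its share is a description. The median difference over the 10 was -0.50. Of the 6, 5 have transcripts over 4000 nucleotides, the class in which all genes had a median of -0.18, and Zfp57 is shorter. Called were Zfp57 (-0.70) and Zfp445 (-0.50), the zinc finger proteins that bind imprinting control regions, the maintenance methyltransferase Dnmt1 (-0.54), Smchd1 (-0.49), a chromatin protein that acts on clustered imprinted genes, and Arid4a and Arid4b (-0.70 and -0.61). Of 31 further genes of imprinted domains, 30 were in the table, 21 were tested and 4 were called, with Commd1 and Begain higher in mouse 3 (0.79 and 0.38) and Herc3 and Ppp1r9a lower (-0.48 and -0.43), and the median difference over the 21 was -0.14. Of the 6 tested host genes of members, Commd1 and Herc3 were called. Herc3, which surrounds Nap1l5, was lower (limma, adjusted p = 0.0070), whereas the difference of Nap1l5 was -0.13 (limma, adjusted p = 0.501).

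Markers of cell types moved with the mice as well. All 3 astrocyte markers were called higher in mouse 3, and they summed to between 245 and 267 FPKM in mice 1 and 2 and to 390 and 416 in mouse 3. Of 3 oligodendrocyte markers 1 was called (Mbp, 1.27), of 3 microglia markers 1 was called higher (Cx3cr1), and of 5 blood markers 1 was called higher (Hbb-bt). Of 5 choroid plexus markers 1 was called lower (Kl), and 0 of 3 endothelium, 5 leptomeninges and 1 tested pituitary markers were called (limma), with 2 of these, Cldn5 and Col1a2, at an unadjusted p under 0.05. No marker was at 0 in all libraries. The part of these cell types in the differences of the imprinted genes was not tested.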

How the data were processed

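The authors deposited FPKM values with confidence bounds for 34535 RefSeq transcripts in each of 8 libraries, and the read coverage (a signal, the depth per base). The submitters' processing notes name TopHat, Cufflinks and mm10. Versions, annotation release and strand setting are not given in the sources used here. RNA with an integrity score over the authors' minimum had been kept. Deposited starts were 0-based and were raised by 1.

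FPKM was summed over a gene's transcripts (78 for the 40 members) and averaged over libraries, then mice. Depth was estimated as coverage multiplied by length; since FPKM holds no counts, counting intervals are not given. The mice were compared with limma 3.58.1 (R 4.3.3), an F-test with intensity trend on log2(FPKM + 1). Genes whose mean reached 1 FPKM entered it, p-values were adjusted by Benjamini-Hochberg over all 13001 of them, and the threshold was 0.05. Libraries were the replicates, so the test describes these mice only. The fold understates changes of low genes. The script was tested on simulated data. Values were handled with Python 3.11.15.

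All 40 members are named, as are members of 14 fixed lists where a result turns on them. Members and lists were chosen with earlier results of these data known. Alternatives were another pseudocount, other minimum levels, TPM, removal of the length trend, the highest transcript, no intensity trend, a block by library number, other means, and leaving out each library. Leaving out library 2 of mouse 3 together with the length trend was added after seeing the data. The permutation tests of ratios were also added then.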

Additional observations from a re-analysis of the deposited data

Results flagged for a closer look

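Library by library, 39 members and 13 ratios between members of a locus were examined for a single library far from the other 7, by the size of its gap to the nearest library against the whole range. The limit used lets chance give such a library in about 1 of 20 sets of independent libraries from 1 population. These libraries come from 3 mice and the genes share them, so that rate does not hold here. Such a library was found for 9 genes and 3 ratios, and for 5 of the 9 genes it was library 2 of mouse 3. In that library Dlk1 had 3.51 FPKM (nearest library 4.76), Peg3 had 14.8 (nearest 25.3), Peg10 had 4.62 (nearest 6.21) and Igf2r had 2.61 (nearest 4.13), all lowest. Sgce had 17.9 FPKM there (nearest 14.6) and was highest. The ratios of Usp29 to Peg3 (0.281, nearest 0.212), Sgce to Peg10 (3.87, nearest 2.30) and Ndn to Magel2 (322, nearest 212) were highest in the same library.

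In library 1 of mouse 2, Gnas had 501 FPKM (nearest 617) and Ndn had 85.5 (nearest 110.0), both lowest. This library had the lowest depth, 1.31 gigabases. Library 1 of mouse 3 gave the lowest Nap1l5 level, 173 FPKM (nearest 205), and Inpp5f was highest in library 2 of mouse 1, at 24.4 (nearest 23.3).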

How the results depend on the processing

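The count of 28 members with at least 1 FPKM was the same under all 11 alternatives tried for it, and the median level of the 40 members (6.04 FPKM) lay between 5.78 and 6.22. The count of 10 members called between the mice was 6 of 39 (15.4%, beside 12.7% of all genes) with no minimum level, 19 (67.9%, beside 43.9%) with TPM, 5 (17.9%, beside 21.1%) with the highest transcript of each gene, and 1 (Meg3; 3.57%, beside 5.95%) without library 2 of mouse 3 and with the length trend removed. When each library was left out in turn it ranged from 2 to 11, with the lowest value without library 2 of mouse 3 and 5 without library 3 of mouse 1. Over all genes the 3496 calls became 5698 with TPM (836 with mouse 3 highest and 4828 with mouse 3 lowest, against 1948 and 1532) and 774 in the combined setting. With each library left out they ranged from 372 to 4131, the lowest again without library 2 of mouse 3, and were 2215, 2083 and 1969 without library 1, 2 or 3 of mouse 1. Over the single members and these settings, 371 values kept their direction and their side of the threshold, 51 lost a call, 13 gained one and 35 changed direction. The members that changed direction are not called in the report, and of the 35 values only that of Rian with TPM was called. With TPM the differences became -0.25 for Rian, -0.24 for Snrpn, -0.17 for Snurf, -0.15 for Ndn, -0.010 for Sgce, -0.27 for Copg2, -0.24 for Blcap and -0.28 for Gnas. With the length trend removed they became -0.066 for Snrpn, -0.016 for Snurf, -0.050 for Ndn, -0.055 for Blcap, -0.18 for Gnas and 0.12 for Inpp5f. In the combined setting they became -0.010 for Rian, -0.10 for Snrpn, -0.039 for Snurf, -0.0751 for Ndn, -0.0061 for Sgce, -0.019 for Blcap, -0.16 for Gnas, 0.055 for Cdkn1c, 0.069 for Inpp5f and 0.056 for Igf2r. With each library left out in turn they ranged from -0.049 to 0.14 for Rian, -0.017 to 0.14 for Snrpn, -0.038 to 0.057 for Copg2, -0.33 to 0.068 for Nap1l5, -0.042 to 0.073 for Gnas, -0.50 to 0.15 for Cdkn1c, -0.011 to 0.0058 for Inpp5f and -0.24 to 0.033 for Airn. The cause was not tested. Deviations from the mouse mean were weakly correlated between same-numbered libraries (r between 0.00276 and 0.107 over 7 pairs, 1 of them over 0.1). Between libraries of different numbers r ran from -0.135 to 0.0645. Deviations within a mouse are tied to each other, so these values do not settle whether the numbers pair the libraries. With the library number as a replicate block 7 members and 3385 genes were called. With mouse 3 represented by 1 library, that library is assumed to vary like the others.

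Depth sets a limit for the 12 members under 1 FPKM, and values of 0 there are values as listed. The division of reads between overlapping transcripts limits Snurf, Snrpn and the Gnas transcripts.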
